A study of Rattus norvegicus with 24 samples.

Results

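A set of 8 genes of the glutathione and thioredoxin systems and related antioxidant defence was followed in microvessels of the rat brain cortex. They are Gsta4, Gstp1, Gpx1, Gpx4, Txn1, Txnrd1, Sod1 and Slc7a11. All probes whose platform annotation gives 1 of these 8 gene symbols and no other were taken, which gave 10 of the 31099 probes on the array (8 of 14218 named genes). Gpx4 and Txnrd1 had 2 probes each and the other genes 1. The 24 arrays form 3 groups of 8. Rats of the groups HAL and HEP first received a portocaval anastomosis, a shunt of portal blood around the liver. A second operation 24 h later tied off the hepatic artery in HAL and took out the liver in HEP. Sham rats had fictitious surgery in 2 steps, so either model differs from Sham in both operations. Tissue was taken 8 to 12 h after the second step in all groups. The labels give no strain, age or allele. Whether every array came from its own rat is not stated either, and p-values measure the spread between arrays.

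Glutathione is a small thiol that cells use to reduce peroxides and to tag reactive molecules for export. Glutathione peroxidases spend it on peroxides, glutathione transferases couple it to electrophiles, and the cystine carrier Slc7a11 brings in the precursor for its synthesis. The thioredoxin system runs in parallel: thioredoxin (Txn1) reduces disulfides in proteins and thioredoxin reductase (Txnrd1) reduces thioredoxin with NADPH. Superoxide dismutase (Sod1) turns superoxide into hydrogen peroxide. Many of these genes are known targets of the transcription factor NRF2, which binds antioxidant response elements. Brain endothelium is rich in such enzymes, which belong to the metabolic side of the blood-brain barrier.

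The start regions of the 2 members that passed a test below, Gsta4 and Txn1, are shown with those of the 2 members whose start region holds the core of an antioxidant response element, Gstp1 and Txnrd1. The sequences are those of RefSeq for the rat assembly GRCr8, and all 8 genes had a window there. Capitals mark the GC box GGGCGG on either strand in the first 2 and the element core TGACNNNGC on either strand in the others. In Txn1 the first 2 GC boxes shown share a base.
Gsta4, 150 bases before the start, chr8:87947115-87947264, plus strand: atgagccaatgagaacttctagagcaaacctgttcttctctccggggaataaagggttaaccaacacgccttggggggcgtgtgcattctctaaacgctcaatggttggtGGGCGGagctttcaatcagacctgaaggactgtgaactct
Txn1, 150 bases before the start, chr5:77519686-77519835, minus strand: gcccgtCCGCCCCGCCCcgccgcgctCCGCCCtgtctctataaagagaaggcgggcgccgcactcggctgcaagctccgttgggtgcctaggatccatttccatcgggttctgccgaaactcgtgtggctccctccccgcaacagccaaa
Gstp1, 69 bases around the element, chr1:210769728-210769796, minus strand: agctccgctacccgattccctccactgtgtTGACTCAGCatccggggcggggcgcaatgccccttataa
Txnrd1, 69 bases around the element, chr7:22755944-22756012, minus strand: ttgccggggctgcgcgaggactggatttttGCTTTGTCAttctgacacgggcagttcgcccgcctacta
In the 250 bases before a start, TGACNNNGC was found in 2 of the 11 windows of the members and in 10.1% of all 33469 windows in the table. GGGCGG was found in 8 of the 11 windows, which belong to 7 of the 8 genes, and in 30.5% of all windows. Slc7a11 was the only one of the 8 genes with neither in any window. Gpx4 and Txnrd1 have several annotated starts, and the Txnrd1 match lies before 1 of its 2. The Gpx4 windows with a GC box overlap and hold the same boxes, so that stretch is counted more than once. A match of letters is a description, and binding was not measured.

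The value table holds only the decimals of each log2 signal, so a level could be read in 1 range only. A signal below 10 shows 9 decimals and a signal from 10 on shows 8. This gives 3 kinds of probe. For probes near 10 (1 to 14 of 24 cells with 9 digits) a reading was taken as 9 or 10 plus the decimals. Cells that lost more digits were missing. Zeros at either end were lost, so a signal below 10 that lost 1 zero also shows 8 digits. It cannot be told from a signal of 10 or above, and its reading is too high by 1 unit or more. All readings of 10 or above in this kind of probe, and the means that hold them, carry this limit. A signal below 9 also shows 9 digits, and a signal 1 unit or more above 10 also shows 8. Such signals are still read as 9 or 10 plus the decimals, so any reading near 10 can be off by whole units. For probes at 10 or above on all arrays (no cell of 9 digits), and for those below 10, arrays were compared by their decimals alone. Such a difference is known only up to whole units of log2: a rise can look like a fall where a whole unit was crossed, and only changes smaller than 0.5 have a readable direction. Probes whose decimals did not cluster (resultant length, a measure of clustering from 0 to 1, under 0.5 over the 24 arrays) were described and not tested. That filter leaves out noisy probes, and by its construction also those whose groups lie far apart. Of the 10 member probes 3 lay near 10, 5 at 10 or above and 2 below 10, and 7 of them, of 6 genes, were tested in limma.

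The vessel fraction was checked by cell type markers. Signals of at least 1 probe stayed at 10 or above throughout for 13 of 13 endothelial marker genes. The same held for 3 of 7 astrocyte, 3 of 8 pericyte, 3 of 5 smooth muscle and 3 of 5 perivascular fibroblast markers. It held for 1 of 4 oligodendrocyte and 1 of 3 red cell markers, but for 0 of 8 neuron and 0 of 5 microglia markers. Leukocyte (0 of 4) and hepatocyte markers (0 of 6) had no such probe either. Other probes of these genes may lie lower. The level of a probe also depends on its affinity. Of 35 marker probes tested, 1 passed in HAL minus Sham, Col3a1 of the perivascular fibroblasts with a difference of -0.87, and 0 in HEP minus Sham. Across arrays the median deviation of the probes at 10 or above from their own means was -0.08 to 0.05, and HAL array 2 lay lowest, as it did among the probes near 10 (-0.15).

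Gsta4 as read fell in both models, and the fall rests on the number of digits. This glutathione transferase conjugates 4-hydroxynonenal and other aldehydes that arise when lipids are oxidised. In Sham its readings ran from 10.16 to 10.95 with a median of 10.57. In HAL they ran from 9.67 to 10.39 with a median of 9.75, and in HEP from 9.45 to 10.12 with a median of 9.88. All 7 Sham arrays that could be read were read at 10 or above, against 1 of 7 HAL and 1 of 6 HEP arrays. The HEP arrays read did not overlap with the Sham arrays read, and 6 of the 7 HAL arrays read lay below the lowest Sham reading. Sham array 4, HAL array 5 and HEP arrays 2 and 8 were not read, so their place is not known. Any of the readings at 10 or above could also stand for a lower signal whose cell had lost 1 zero, and any reading could be off by whole units. The share of all probes near 10 with such a separation was not worked out. The mean reading was 10.58 ± 0.28 in Sham (SD, n = 7), 9.82 ± 0.25 in HAL (SD, n = 7) and 9.85 ± 0.22 in HEP (SD, n = 6).

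The difference of Gsta4 was -0.75 in HAL (95% interval -1.06 to -0.44, adjusted p = 0.00633 in limma with Benjamini-Hochberg adjustment) and -0.73 in HEP (95% interval -1.05 to -0.41, adjusted p = 0.0157 in limma). An exact two-sided permutation test over the arrays read gave unadjusted p = 0.00175 for HAL and 0.00117 for HEP. Gsta4 was the only one of 3 member probes near 10 to pass in either comparison, where 3.72% of all 2526 probes near 10 passed in HAL minus Sham and 2.18% in HEP minus Sham. Both comparisons use the same Sham arrays. The fall rests on the number of digits, which sets whether 9 or 10 is added to the decimals. The decimals of the cells read were on average not lower in HAL or HEP than in Sham. Cells of 9 digits, the mark of a signal below 10, were 0 of 8 in Sham, 6 of 8 in HAL and 5 of 8 in HEP. Fisher's exact test of these counts gave p = 0.00699 for HAL and 0.0256 for HEP, which did not pass when adjusted over all probes near 10 (0.239 and 0.635). The whole vessel fraction was measured, so fewer cells that hold Gsta4 and less of its RNA per cell cannot be told apart. The 4 astrocyte marker probes that were tested had median differences of 0.09 in HAL and 0.06 in HEP, and the 5 of endothelium -0.04 and 0.02. The 5 pericyte probes had medians of -0.02 and 0.01, with single probes at -0.03 to 0.23 in HAL and -0.19 to 0.54 in HEP. The 1 oligodendrocyte probe had -0.20 and -0.67, and no smooth muscle probe was tested. The clustering filter leaves out probes whose groups lie far apart, so such markers could be missing. Of the 3 perivascular fibroblast probes, Col3a1 had -0.87 and -0.48, Col1a2 -0.83 and -0.61, and Col1a1 0.13 and 0.07. Of these only Col3a1 in HAL passed. Their part in the fall of Gsta4 was not tested.

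**Figure D1:**
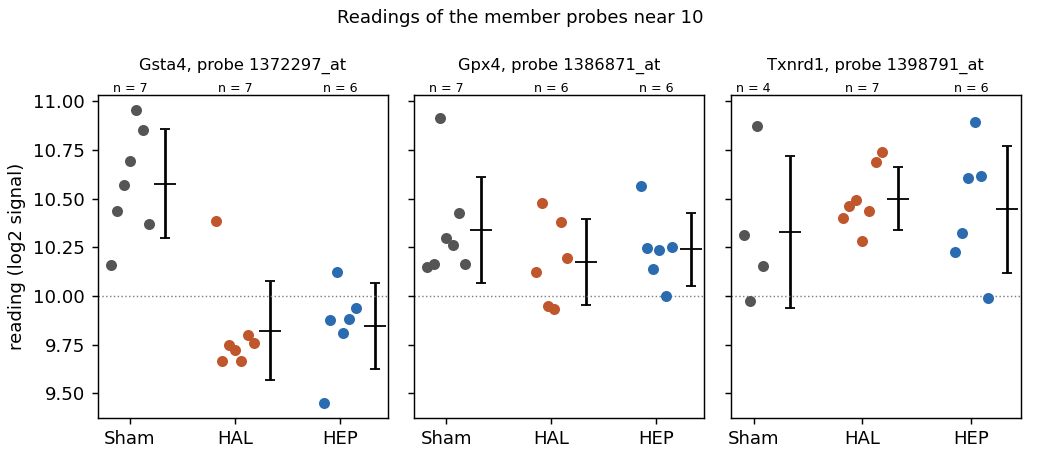
Readings (log2 signal, y axis) of the 3 member probes near 10 by group; each point is 1 array that could be read, and the bars give the mean and SD. For Gsta4 the HAL and HEP arrays lie below Sham apart from 1 HAL array at 10.39, while the groups of Gpx4 and Txnrd1 overlap.

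Gstp1, the pi class transferase, did not pass in either model. Its decimals were spread from -0.21 to 0.51 in Sham, with a median of -0.00089. They ran from -0.24 to 0.28 in HAL (median 0.03) and from -0.39 to 0.21 in HEP (median 0.08), where a negative value lies below the whole number nearest to the probe's centre. The groups overlapped. The difference was -0.06 in HAL (95% interval -0.24 to 0.11, adjusted p = 0.717 in limma) and -0.05 in HEP (95% interval -0.23 to 0.13, adjusted p = 0.825 in limma). Gstp1 was among the most variable of the probes at 10 or above that were tested: its within-group SD of 0.20 was larger than that of 99.0% of them. Its probe passed the clustering filter only narrowly, with a resultant length of 0.508. The filter kept 918 of the 1933 probes at 10 or above and left out those whose decimals were more spread. The high rank of Gstp1 among the probes kept therefore follows largely from the filter.

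Txn1 rose in HEP, with limits on that call. Its decimals ran from 0.43 to 0.91 in Sham (median 0.71), from 0.63 to 0.88 in HAL (median 0.77) and from 0.84 to 1.25 in HEP (median 0.97). All 8 HEP arrays lay above the Sham mean, and 5 of them above the highest Sham array, while the HAL arrays lay within the Sham range. The mean was 0.70 ± 0.15 in Sham, 0.76 ± 0.09 in HAL and 0.98 ± 0.14 in HEP (SD, n = 8 each).

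The difference of Txn1 was 0.28 in HEP (95% interval 0.14 to 0.42, adjusted p = 0.0324 in limma) and 0.06 in HAL (95% interval -0.07 to 0.20, adjusted p = 0.635 in limma). It was the only one of the 3 tested member probes at 10 or above to pass in HEP minus Sham, where 0.763% of 918 probes passed, and none of the 3 passed in HAL minus Sham, where 3.49% did. The exact two-sided permutation test gave unadjusted p = 0.00155 for HEP. In HEP 4 of 8 cells had lost zeros, and each was given the placement nearest the probe's centre. With such cells left missing the difference was 0.28 with adjusted p = 0.119 in limma, and with leading zeros 0.22 with adjusted p = 0.179, so the call rests on how short cells are read. It also ended when HAL was left out of the fit (adjusted p = 0.0572 in limma) and with 1 of 9 arrays left out: Sham arrays 1, 2, 4, 5 and 8 and HEP arrays 1, 3, 5 and 6, with adjusted p of up to 0.0981 in limma.

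Txnrd1 did not pass with its probe near 10. Its readings ran from 9.97 to 10.87 over the 4 Sham arrays read, from 10.28 to 10.74 over 7 HAL arrays and from 9.99 to 10.90 over 6 HEP arrays, and the groups overlapped. The difference was 0.17 in HAL (95% interval -0.23 to 0.57, adjusted p = 0.712 in limma) and 0.12 in HEP (95% interval -0.30 to 0.53, adjusted p = 0.862 in limma). Only 4 of 8 Sham arrays could be read, so Txnrd1 is the member measured with the widest interval. A signal just above 10 has decimals that start with 0 and so loses digits, which means that missing cells can depend on the level. With short cells read with leading zeros the difference was 0.26 in HAL (adjusted p = 0.385 in limma) and 0.16 in HEP (adjusted p = 0.693 in limma). Without Sham array 2 the difference was 0.05 in HAL and -0.0027 in HEP, and without Sham array 3 it was 0.35 and 0.30, and none of these passed. Its other probe, below 10, had decimals from 0.10 to 0.75 in Sham, -0.01 to 0.72 in HAL and 0.09 to 0.64 in HEP. With a resultant length of 0.231 these did not cluster, and the probe gives no direction.

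**Figure D2:**
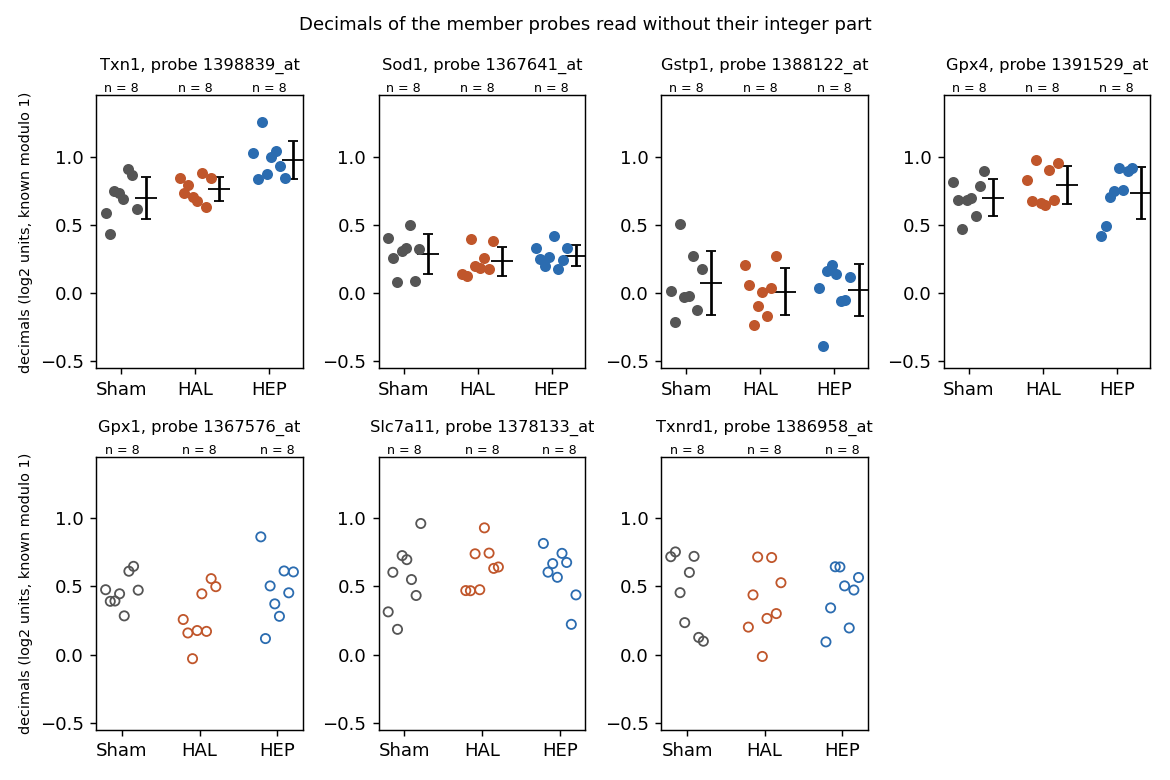
Decimals of the log2 signal (y axis, log2 units known modulo 1) of the 7 member probes compared without their integer part, by group with 8 arrays each; filled points with mean and SD were tested, open points were not. For Txn1 the HEP arrays lie at 0.84 or more, with 5 of 8 above the highest Sham array. Among those 5, HEP arrays 1, 5 and 6 had lost zeros. In every panel some arrays of the groups overlap.

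Gpx4, the peroxidase that reduces lipid peroxides within membranes and so guards against ferroptosis, did not pass with either probe. The probe near 10 had readings of 10.15 to 10.92 in Sham (median 10.26), 9.94 to 10.48 in HAL (median 10.16) and 9.999 to 10.57 in HEP (median 10.24). These groups overlapped. The difference was -0.16 in HAL (95% interval -0.47 to 0.14, adjusted p = 0.623 in limma) and -0.10 in HEP (95% interval -0.41 to 0.21, adjusted p = 0.829 in limma). The Sham mean holds the highest reading of the 3 groups, 10.92 on array 3, and without that array the difference was -0.07 in HAL and -0.0049 in HEP.

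The second Gpx4 probe lay below 10. Its decimals ran from 0.47 to 0.90 in Sham (median 0.69), from 0.65 to 0.98 in HAL (median 0.75) and from 0.42 to 0.92 in HEP (median 0.75). The difference was 0.09 in HAL (95% interval -0.06 to 0.24, adjusted p = 0.610 in limma) and 0.03 in HEP (95% interval -0.12 to 0.18, adjusted p = 0.952 in limma). The estimates of the 2 probes thus had opposite signs in both models, each within an interval that holds 0. Among probes below 10 only 0.031% of 12884 passed in HAL minus Sham and 0% in HEP minus Sham (1791 and 1065 at an unadjusted p under 0.05), so a call in this class was rare for any gene.

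Gpx1, the cytosolic peroxidase that reduces hydrogen peroxide, lay at 10 or above on all arrays and was not tested, because its resultant length of 0.458 missed the filter. In Sham its decimals ran from 0.28 to 0.65 (median 0.46). In HAL they ran from -0.03 to 0.56 (median 0.22), and 5 of 8 HAL arrays lay below the lowest Sham array. Among those 5, HAL arrays 1 and 2 had lost zeros and stand where these were placed. In HEP they were spread from 0.12 to 0.86 (median 0.48), and 2 of 8 lay below and 1 above the Sham range. As the decimals did not cluster, these positions give no secure direction, and the share of all probes at 10 or above with such counts was not worked out. The means were 0.47 ± 0.12 in Sham, 0.28 ± 0.20 in HAL and 0.48 ± 0.23 in HEP (SD, n = 8 each). With the filter lowered to 0.35 the difference in HAL was -0.19 (adjusted p = 0.263 in limma) and did not pass.

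Sod1 had the steadiest values of the tested members at 10 or above, with a within-group SD of 0.11 against a median of 0.15 over the 918 probes. Its decimals ran from 0.08 to 0.50 in Sham (median 0.31), from 0.13 to 0.40 in HAL (median 0.20) and from 0.17 to 0.42 in HEP (median 0.26). The HAL and HEP arrays all lay within the Sham range. The difference was -0.05 in HAL (95% interval -0.18 to 0.08, adjusted p = 0.686 in limma) and -0.01 in HEP (95% interval -0.14 to 0.12, adjusted p = 0.963 in limma). These intervals hold only if no whole unit was crossed.

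Slc7a11, the cystine and glutamate exchanger, also lay at 10 or above on all arrays and was not tested, with a resultant length of 0.480. Its decimals ran from 0.19 to 0.96 in Sham (median 0.58), from 0.47 to 0.93 in HAL (median 0.64) and from 0.22 to 0.82 in HEP (median 0.64). The means were 0.56 ± 0.25, 0.64 ± 0.16 and 0.59 ± 0.19 (SD, n = 8 each), and the groups overlapped.

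**Figure D3:**
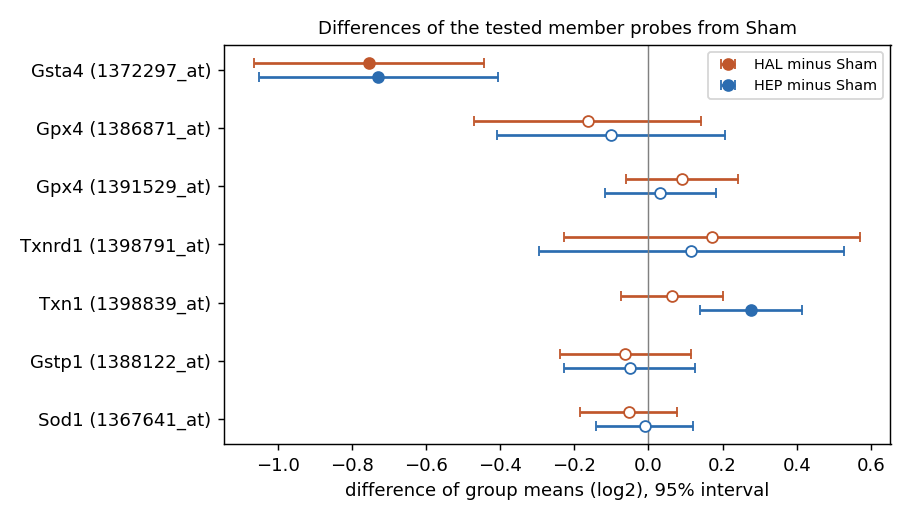
Differences from Sham (x axis, log2, points) with 95% intervals for the 7 tested member probes in HAL and HEP; filled points passed an adjusted p of 0.05 in limma. Gsta4 stands at -0.75 and -0.73 and Txn1 in HEP at 0.28, and the other intervals hold 0.

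The models themselves were compared by HEP minus HAL. None of the 7 member probes passed in limma, and neither did any of the 918 probes at 10 or above, 2526 near 10 or 12884 below 10, of which 89, 216 and 919 had an unadjusted p under 0.05. Txn1 had the smallest p of the members, with a difference of 0.21 (95% interval 0.07 to 0.35, adjusted p = 0.204 in limma). Its exact permutation p was 0.00218, unadjusted. For Gsta4 the difference was 0.02 (95% interval -0.30 to 0.35, adjusted p = 0.969 in limma).

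Over the 7 tested member probes, 1 passed downward and 0 upward in HAL, and 1 passed in each direction in HEP. Over all 16328 probes tested, 130 (0.796%) passed in HAL and 62 (0.38%) in HEP, and these shares differ between the 3 kinds of probe as given above. The members' median difference was -0.05 in HAL and -0.01 in HEP, against 0.02 and 0.01 over all of these probes. Of the members' differences 3 of 7 were positive in either model, against 59.1% of all probes tested in HAL and 55.1% in HEP. Most of all probes tested lay below 10 (12884), but only 1 of the 7 member probes did. In HAL 349 of 918 probes at 10 or above, 1124 of 2526 near 10 and 8185 of 12884 below 10 were positive. Their medians were -0.04, -0.03 and 0.03. In HEP the counts were 426, 1246 and 7320. The shares and medians over all probes thus do not match the members' mix of kinds.

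**Figure D4:**
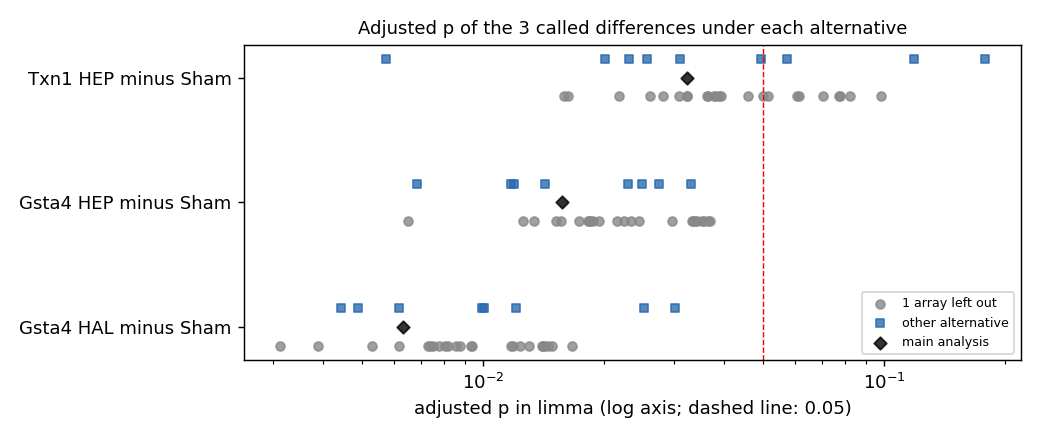
Adjusted p in limma (x axis, log scale, dashed line at 0.05) of the 3 differences that passed, in the main analysis (diamonds), with 1 array left out (circles) and under the other alternatives that gave a value (squares). The Gsta4 points lie left of the line, and those of Txn1 fall on either side, up to 0.179.

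A wider list of 98 genes of the same pathways, which leaves out the 8 members, had 90 genes with a probe, and 42 of their 109 probes, of 39 genes, were tested. A count of 1 probe passed in HAL and 1 in HEP, against 0.796% and 0.38% of all probes tested. Both calls were upward and of the same Slc1a1 probe, which lies near 10, where 3.72% and 2.18% passed. The median difference over the 42 probes was -0.0025 in HAL and 0.02 in HEP. Slc1a1 is a carrier of glutamate and cysteine and so can supply glutathione synthesis. Its readings ran from a Sham mean of 9.53 ± 0.48 (SD, n = 8) to 10.51 ± 0.35 in HAL and 10.44 ± 0.33 in HEP (SD, n = 7 each). The differences were 0.98 (adjusted p = 0.00682 in limma) and 0.91 (adjusted p = 0.0176 in limma). A second Slc1a1 probe near 10 had differences of 0.55 (adjusted p = 0.257 in limma) and 0.84 (adjusted p = 0.0848 in limma), neither of which passed.

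No other probe of these lists passed. Among glutathione transferases other than Gsta4 and Gstp1, 0 of 8 tested probes passed, and Gstm2, a mu class enzyme, had the smallest p, with a difference of -0.11 in HAL (adjusted p = 0.575 in limma). Among other glutathione peroxidases 0 of 2 passed, and Gpx6 had a difference of 0.07 in HEP (adjusted p = 0.814 in limma). In the thioredoxin and glutaredoxin list without Txn1 and Txnrd1, 0 of 12 passed, and the methionine sulfoxide reductase Msrb2 had a difference of -0.20 in HEP (adjusted p = 0.353 in limma). The peroxiredoxin Prdx2 was the only one of its list tested and had a difference of -0.11 in HEP (adjusted p = 0.542 in limma). Catalase (Cat) was the only one tested of its list, with 0.00081 in HAL and 0.01 in HEP. Of NRF2 regulators and known targets 0 of 9 passed. Idh1, a cytosolic source of NADPH, came closest with -0.27 in HEP (adjusted p = 0.0866 in limma) and -0.23 in HAL (adjusted p = 0.116 in limma), but its second probe had 0.0026 and -0.0065. At an unadjusted p under 0.05 there were 4 of 42 probes in HAL and 4 in HEP, where 14.7% and 9.59% of all probes tested had such a p.

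The probes most like Gsta4 over the arrays read, among 1620 named probes near 10, were those of Agfg1 (Pearson r = 0.854, 19 arrays), Dhrs7 (0.844, 17 arrays) and Exoc2 (0.834, 18 arrays). For Txn1, among 742 named probes at 10 or above, they were Psmd2, a proteasome subunit (r = 0.752), and the subunits Atp6v0c (0.613) and Atp6v0e1 (0.607) of the vacuolar proton pump, each over 24 arrays. These correlations share the arrays, the normalisation and the 3 groups, and are a description.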

How the data were processed

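RNA of cortical microvessels was measured on 24 arrays. Per the labels' protocols the label came from an Affymetrix whole-transcript kit, while the probe identifiers are those of a 3' expression array. This mismatch was not resolved. Per the submitters' processing notes the authors made the values with RMA, with no version named. In the deposited table each of 746376 cells is another kind of number than a log2 signal: a whole number of at most 9 digits, with 0 ending in 0, taken as the decimals alone, with zeros at either end lost.

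Decimals were unwrapped around each probe's circular mean over all arrays, and a cell that had lost zeros took the placement nearest to it, which narrows the spread. Groups were compared in limma 3.58.1 (R 4.3.3) with group means over all arrays, eBayes without trend and Benjamini-Hochberg adjustment within each of the 3 kinds of probe at 0.05. Near 10 a probe needed 2 readings per group. Python 3.11.15, numpy 2.4.6 and scipy 1.17.1 were used for reading and exact tests. Scripts were tested on simulated data, whose spreads were smaller than the median within-group SD of 0.41 of the probes near 10. That test therefore does not cover the probes near 10 as measured. The number of arrays limits the precision.

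Members and lists were chosen with earlier results of these data known. From the lists the text names genes with a passing probe, else the one with the smallest p, and for a passing member the 3 most correlated probes of its kind (near 10 with at least 18 readings). No columns were identical (0 pairs). Alternatives covered the reading of short cells, the filter, unwrapping, centring, array weights, groups fitted, a replicate block and left-out arrays.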

Additional observations from a re-analysis of the deposited data

Results flagged for a closer look

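In 3 of 30 sets of 1 member probe in 1 group, 1 array stood apart from the others by Dixon's criterion, which chance alone meets in about 1 of 20. Gsta4 on HAL array 1 had a reading of 10.39, while the other HAL arrays read lay between 9.67 and 9.80. Its cell has 8 digits, and would read 9.39 if a last zero was lost or 9.04 if a first zero was lost. Gpx4 (probe near 10) on Sham array 3 had a reading of 10.92, against 10.15 to 10.43 on the other Sham arrays, and would read 9.92 if a last zero was lost. Gstp1 on HEP array 2 had decimals of -0.39, against -0.05 to 0.21 on the other HEP arrays, and as decimals are known modulo 1 it could equally stand at 0.61.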

How the results depend on the processing

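Gsta4 passed in both models in each of the 32 alternative limma fits that gave it a value (differences of -0.85 to -0.65 in HAL and -0.80 to -0.61 in HEP). All of these fits took the whole number of a reading from the number of digits, so they could not test that step. Read by decimals alone, the Gsta4 probe missed the clustering filter, so 0 member probes near 10 passed there in HAL or HEP. The count of member probes at 10 or above that passed in HEP fell from 1 to 0 with short cells missing or with leading zeros, with a filter of 0.7 (which leaves Txn1 out) and with only the 2 groups compared, and was 0 to 1 with 1 array left out. Correlations of the deviations of same-numbered arrays ran from -0.143 to 0.322 over the 3 kinds of probe (means -0.0014 to 0.05), so arrays were not treated as paired. With the replicate block Gsta4 had -0.76 in HAL and -0.80 in HEP and Txn1 0.28 in HEP, and no member call changed. Differences that did not pass changed sign: Gstp1 to 0.0626 (HAL) and 0.0743 (HEP) when unwrapped by group; Gpx4 near 10 to 0.0145 in HEP by decimals; Gsta4 in HEP minus HAL, which became -0.0143 with array centring and -0.0347 with the replicate block; and, without HAL arrays 2 and 5 and Sham array 3, Gstp1 in HEP to 0.0115, Gpx4 below 10 in HEP to -0.00051 and Gsta4 in HEP minus HAL to -0.00087. With 1 array left out the ranges were -0.0397 to 0.0205 for Sod1, -0.0913 to 0.0115 for Gstp1, -0.0027 to 0.30 for Txnrd1 and -0.00051 to 0.0761 for Gpx4 below 10 (all HEP), -0.0302 to 0.119 for Gsta4 in HEP minus HAL, and, with no change of sign, 0.05 to 0.35 for Txnrd1 in HAL and, for Gpx4 near 10, -0.22 to -0.07 in HAL and -0.17 to -0.0049 in HEP. Without the same 3 arrays Txnrd1 in HAL had 0.39 (adjusted p = 0.334 in limma). The cause was not tested. Of all probes at 10 or above, 32 passed in HAL, but 1 with short cells missing, 2 with leading zeros, 66 unwrapped by group, 57 with array weights, 11 with only the 2 groups compared, 6 with a filter of 0.7, 12 without HAL arrays 2 and 5 and Sham array 3, and 9 to 50 with 1 array left out. In HEP 7 passed, but 0 with leading zeros or a filter of 0.7, 13 with a filter of 0.35, 30 unwrapped by group, 58 with array weights, 4 with only the 2 groups compared, 18 without those 3 arrays and 0 to 40 with 1 array left out. Near 10, 94 passed in HAL and 55 in HEP, but 0 and 0 by decimals, 8 and 0 in Fisher's exact test, 127 in HEP with array weights, 42 in HAL without those 3 arrays, and 63 to 120 in HAL and 29 to 137 in HEP with 1 array left out. Below 10, 4 passed in HAL and 0 in HEP, but 60 and 17 unwrapped by group, 30 and 5 with array centring, 3 and 15 with array weights, 0 in HAL with leading zeros, a filter of 0.7, only the 2 groups compared or those 3 arrays left out, and 0 to 10 and 0 to 14 with 1 array left out. Array centring turned the HAL split at 10 or above from 12 higher and 20 lower to 21 and 10, and near 10 from 27 and 67 to 47 and 56.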
